A study of Mus musculus with 15 samples.

Results

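Pituitary glands of male mice that lacked both copies of the pituitary enhancer of Nr5a1 were compared with glands of males that lacked a single copy. The comparison took every library labelled as a male pituitary, 8 of the 15 libraries of the series, and all 55523 rows of the count table, of which 17392 had enough counts to be tested. The pituitary enhancer (PE) is a stretch of an intron of Nr5a1 that was removed from the mouse genome with CRISPR/Cas9. PE+/- males carried a heterozygous deletion of it and PE-/- males a homozygous deletion, so the controls lacked the enhancer on one chromosome and the comparison held no wild-type gland. There were 4 libraries of each genotype. The other 7 libraries, 4 of PE+/- and 3 of PE-/- females, were used only to set the male changes beside those of the other sex. Each library was made from whole pituitary RNA, and the labels state neither the age of the mice nor whether glands were pooled. The deletion was present in every cell of the animal, and Nr5a1 is also active in the gonads, adrenal cortex and hypothalamus, which were not profiled in these libraries.

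NR5A1, also called Ad4BP or SF-1, is a nuclear receptor that binds DNA as a monomer. In the anterior pituitary it is found in gonadotropes, the cells that answer gonadotropin-releasing hormone (GnRH) from the hypothalamus by secreting luteinizing and follicle-stimulating hormone. Both hormones pair a shared alpha subunit, encoded by Cga, with a beta subunit of their own, encoded by Lhb or Fshb. Gonadotropes are a minor population beside the cells that make growth hormone, prolactin, adrenocorticotropin and thyrotropin, so a gene of whole gland RNA can move with any of these cells.

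NR5A1 recognises sequences close to the 8 letters CAAGGTCA, which makes the promoters of the gonadotrope genes the sequences to look at first. Among all 32851 mouse promoters of 300 bases in RefSeq (build GRCm38.p6, 250 bases before to 50 after the start), 1.56% held CAAGGTCA on either strand and 6.71% held the looser CAAGGNCA, which includes it. Promoters were found for 13 of the 23 genes that passed the test, and of these only the promoter of Lhb held either sequence. None of the 10 with a promoter among the 19 genes outside the gonadotrope list held one (0 of 10). Of the 9 genes of the gonadotrope list with a promoter, 4 held CAAGGNCA, namely Lhb, Cga, Tgfbr3l and Nr0b2. Lhb fell in PE-/- males, Tgfbr3l had lower values without passing the test, and Cga did not pass it either, so these 3 promoters are printed for comparison, with each match to CAAGGNCA on either strand in capitals. They lie at chr7:45420696-45420995, chr4:34893529-34893828 and chr8:4247964-4248263, all on the plus strand.
Lhb: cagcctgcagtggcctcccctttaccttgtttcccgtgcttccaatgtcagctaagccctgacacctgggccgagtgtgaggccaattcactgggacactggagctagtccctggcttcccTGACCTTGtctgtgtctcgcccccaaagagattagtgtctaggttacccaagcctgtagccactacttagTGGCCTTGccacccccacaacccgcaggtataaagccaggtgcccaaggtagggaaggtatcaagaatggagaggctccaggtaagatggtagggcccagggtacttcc
Cga: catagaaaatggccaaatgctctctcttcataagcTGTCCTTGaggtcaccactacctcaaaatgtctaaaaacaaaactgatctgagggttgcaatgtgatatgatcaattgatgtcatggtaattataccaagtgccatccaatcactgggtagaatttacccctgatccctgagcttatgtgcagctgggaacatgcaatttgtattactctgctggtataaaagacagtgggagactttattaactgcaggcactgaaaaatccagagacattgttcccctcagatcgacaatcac
Tgfbr3l: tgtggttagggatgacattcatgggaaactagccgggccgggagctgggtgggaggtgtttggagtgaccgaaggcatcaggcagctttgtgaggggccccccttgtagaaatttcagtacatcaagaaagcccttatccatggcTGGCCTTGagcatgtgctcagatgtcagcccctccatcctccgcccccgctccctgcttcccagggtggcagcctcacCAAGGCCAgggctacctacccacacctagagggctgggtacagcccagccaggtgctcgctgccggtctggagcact
A match of letters is a description of the window and says nothing of binding, and a window with no match says nothing of binding elsewhere.

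Library totals ran from 15135265 to 25391417 estimated counts, and the 10 most abundant genes took 21.7% to 27.9% of a library. Gh and Pomc, which define the somatotropes and the melanotropes and corticotropes of a pituitary, were abundant in all 8 libraries. Over all genes, the second principal component (18.2% of the variance) held the genotypes apart, from -60.7 to -1.09 in PE+/- and from 18.5 to 57.7 in PE-/- males. The first component (19.3%) had PE+/- replicates 1 and 2 at its ends, at -78.3 and 82.0. Levels are given below as CPM, the counts scaled to a common library size, after TMM scaling, and differences as log2 fold changes of PE-/- over PE+/-, so that a negative value is lower in PE-/- males. A gene was called changed when its adjusted p in edgeR's quasi-likelihood test was under 0.05.

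The targeted gene went with its labels. Nr5a1 (chr2:38692656-38714542) was at 79.9, 34.4, 45.5 and 39.9 CPM in PE+/- replicates 1 to 4 and at 0.300, 0.342, 0 and 0.734 CPM in PE-/- replicates 1 to 4. The PE-/- mean was 0.689% of that of PE+/- males (log2 fold change -7.19 ± 0.75 SE, adjusted p = 0.0117).

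In all, 23 genes (0.132% of those tested) were called, 8 higher and 15 lower in PE-/- males. That is 0.046% of the genes tested in the upward and 0.0862% in the downward direction. At an unadjusted p under 0.05 there were 1067 genes (6.14%), with 581 higher (3.34%) and 486 lower (2.79%). The levels of the 2 groups did not overlap in 795 genes (4.57%), of which 440 were higher (2.53%) and 355 lower (2.04%). DESeq2 called 203 of the 16612 genes it tested (1.22%), with 92 higher (0.554%) and 111 lower (0.668%). The median log2 fold change over all genes tested was 0.0027, with 8773 estimates higher and 8619 lower in PE-/- males. Of the 23 called genes, 4 belonged to a list of 10 gonadotrope genes and 19 did not, and all 23 had groups that did not overlap.

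**Figure D1:**
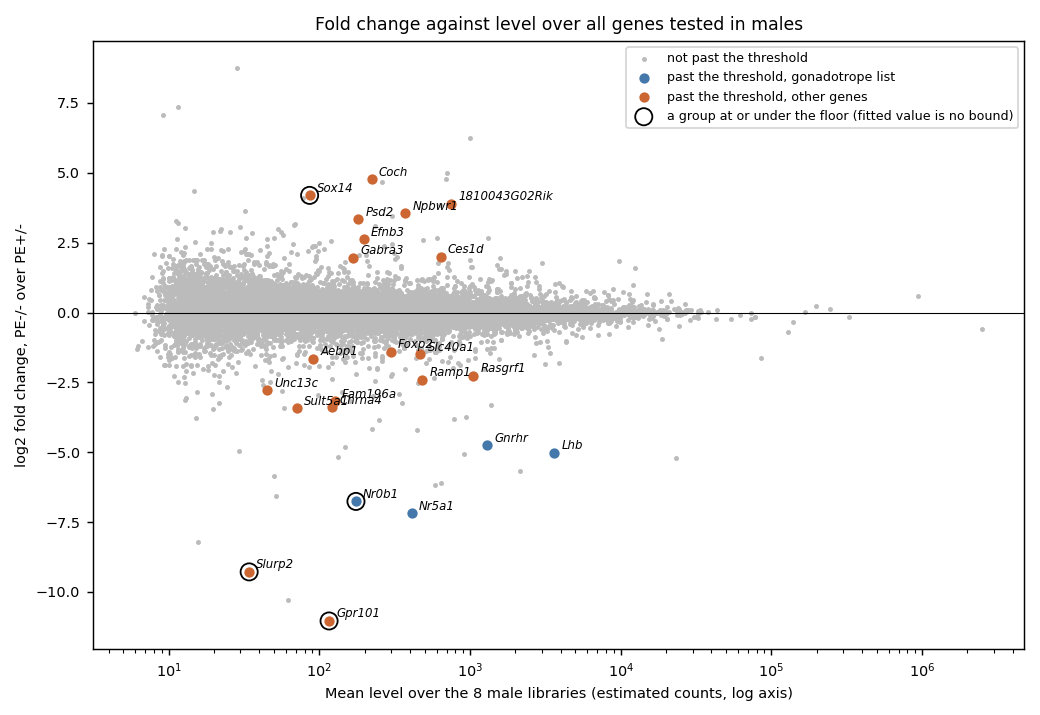
Log2 fold change of PE-/- over PE+/- males (vertical axis) against the mean level over the 8 male libraries in estimated counts (horizontal log axis), 1 point per gene tested. The 4 blue points are called gonadotrope genes and the 19 orange points other called genes. Ringed genes had a group at or under the detection floor, so their fitted value is no bound. Genes with a fold change as large as those called lie among the grey points, mostly at low counts.

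Among the gonadotrope genes, Gnrhr, the receptor for GnRH, was at 154, 131, 195 and 108 CPM in PE+/- and at 8.05, 5.25, 6.56 and 1.86 CPM in PE-/- replicates 1 to 4, and it fell by 4.75 on the log2 scale (SE 0.45, adjusted p = 0.00991). Lhb was at 575, 306, 458 and 351 CPM in PE+/- and at 15.1, 17.0, 16.5 and 3.11 CPM in PE-/- males (-5.03 ± 0.55, adjusted p = 0.0132). Nr0b1, the gene for the orphan receptor DAX-1, was at 20.2, 16.6, 20.8 and 25.3 CPM in PE+/- males and at 0, 0.152, 0.559 and 0 CPM in PE-/- males. Those PE-/- libraries were at or under 12 counts, taken as the floor of detection, so Nr0b1 was at least 36.1-fold lower (adjusted p = 0.0203). Fshb missed the threshold by little. Its levels of 3118, 2175, 3236 and 2218 CPM against 79.9, 71.5, 127 and 9.04 CPM gave -5.22 ± 0.72 with an adjusted p of 0.0506 (0.0526 in females, in a fit of all 15 libraries).

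The gonadotrope list as a whole had 9 genes tested, all lower in PE-/- males, with a median log2 fold change of -5.03 and 8 with separate groups. DESeq2 called 8 of them. The exception was Cga, at 12887, 8703, 4976 and 7103 CPM in PE+/- and 6368, 6674, 6334 and 1336 CPM in PE-/- males (-0.70 ± 0.49, adjusted p = 0.970). Cga is also made by thyrotropes. In whole gland RNA, fewer gonadotropes and less RNA of these genes per gonadotrope cannot be told apart. For the genes below, a different number of the cells that express a gene and a different amount of its RNA per cell cannot be told apart either. PE-/- replicate 4 held the least Gnrhr, Lhb, Fshb and Cga of the 4 PE-/- libraries. The list joins hormone and receptor genes that define the cell with genes that the study picked partly for lower levels in these libraries, Spp1 and Grem1 among them. The count of lower genes and the median are therefore a description and no independent evidence of the direction.

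Outside the gonadotrope list, 8 genes rose and 11 fell. DESeq2 also called all 19, and all 19 differed by more than 2-fold between the group means, 14 of them by more than 4-fold. Receptors and ligands at the cell surface, exchange and priming factors inside the cell, a pair of transcription factors, enzymes and transporters, and secreted matrix proteins were all among them.

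**Figure D2:**
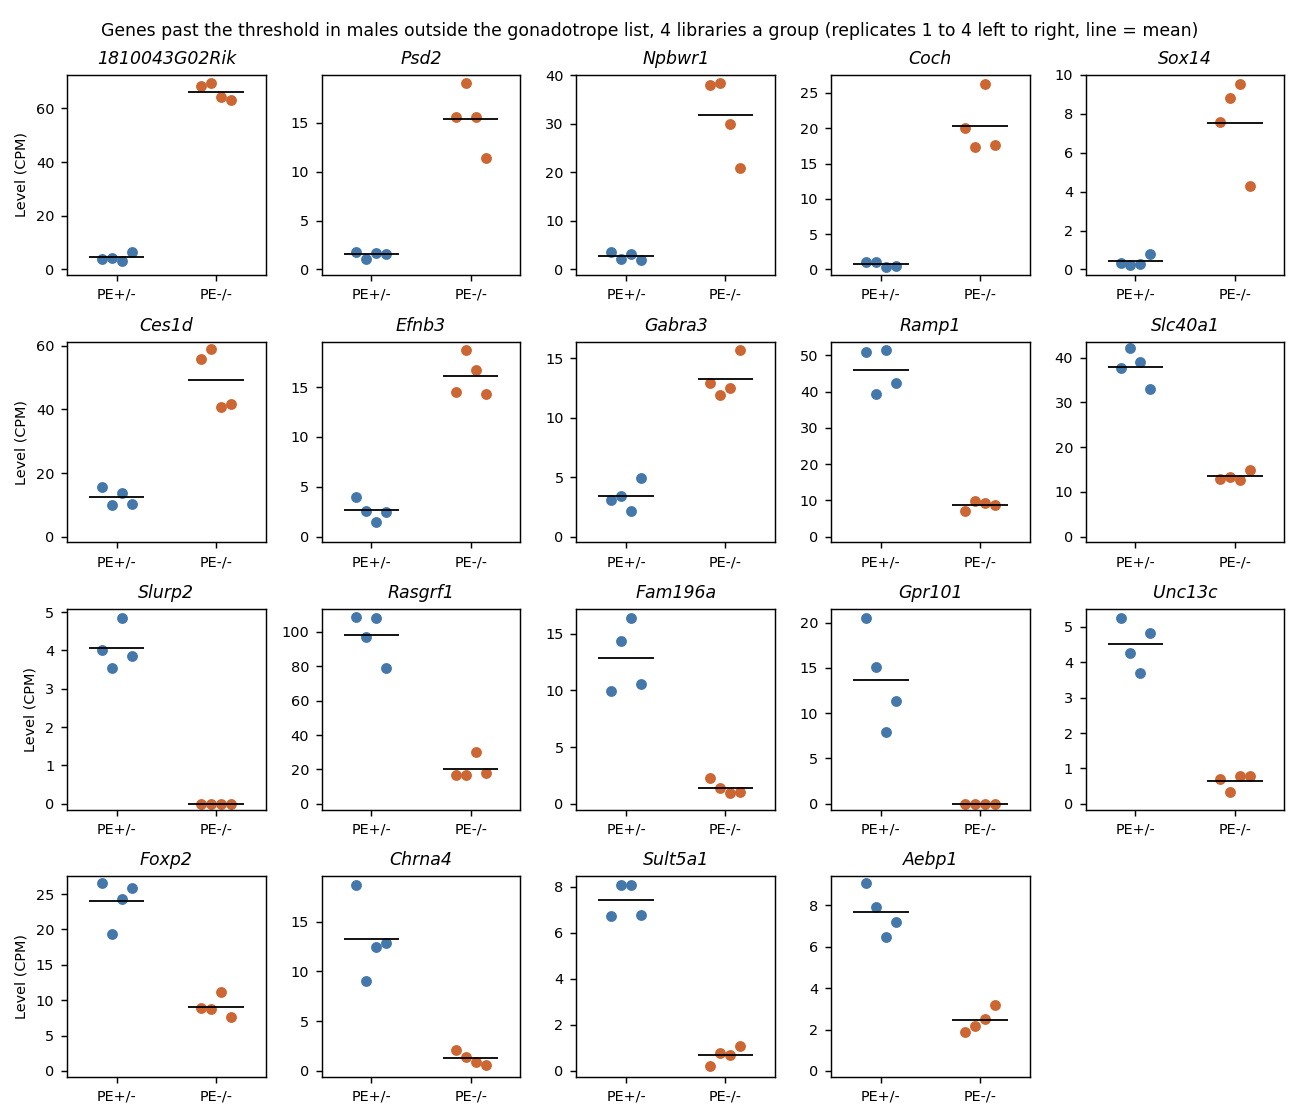
Levels in CPM (vertical axes, each from 0) of the 19 called genes outside the gonadotrope list, 1 panel per gene, with PE+/- males in blue and PE-/- males in orange. Points are libraries with replicates 1 to 4 from left to right, and lines are group means. In every panel the 2 groups are apart. Slurp2 and Gpr101 are at 0 in all 4 PE-/- libraries.

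Receptors for transmitters and peptides went both ways. Npbwr1, the receptor for neuropeptides B and W, was at 3.58, 2.25, 3.15 and 1.93 CPM in PE+/- and at 38.0, 38.3, 29.98 and 21.0 CPM in PE-/- males. The lowest PE-/- library thus stood well above the highest control, and the gene rose 11.7-fold in the means (log2 3.55 ± 0.29, adjusted p = 0.00447). It was the only one of 21 tested neuropeptide and neuropeptide receptor genes to be called, in a list with a median of -0.0087.

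Ramp1 encodes an accessory protein that turns the calcitonin receptor-like receptor into a receptor for calcitonin gene-related peptide. It was at 51.0, 39.4, 51.6 and 42.3 CPM in PE+/- and at 6.95, 9.88, 9.26 and 8.64 CPM in PE-/- males (-2.41 ± 0.17, adjusted p = 0.00262). The spread within either group was small, 46.1 ± 6.14 against 8.69 ± 1.26 CPM (SD, n = 4). Of the 6 tested genes of the calcitonin receptor family (median -0.16) it alone was called, and Calcrl, the receptor it joins, had a log2 fold change of 0.01 (unadjusted p = 0.96). Ramp3 was at 9.90 to 30.4 CPM in PE+/- and 10.1 to 14.6 CPM in PE-/- males and did not pass (-0.65 ± 0.31, adjusted p = 0.848). Ramp2 read 4.14, 103, 1.76 and 4.44 CPM in PE+/- and 3.35, 111, 2.75 and 104 CPM in PE-/- males, a jump within both groups at an assembled locus that it shared with Vps25, so its value of 0.96 ± 1.55 carries little.

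Subunits of ligand-gated channels moved in opposite directions. Chrna4, the alpha 4 subunit of nicotinic acetylcholine receptors, was at 18.7, 8.99, 12.5 and 12.9 CPM in PE+/- and at 2.10, 1.41, 0.884 and 0.621 CPM in PE-/- males (-3.39 ± 0.41, adjusted p = 0.0203). Gabra3, the alpha 3 subunit of GABA-A receptors, was at 3.09, 3.39, 2.18 and 4.89 CPM in PE+/- and at 12.9, 11.9, 12.5 and 15.7 CPM in PE-/- males (1.97 ± 0.25, adjusted p = 0.0312). These were 2 of the 33 tested genes for nicotinic, GABA, glycine and glutamate receptors, a list with a median of -0.05. The next in the list were Glra2, a glycine receptor subunit, at 40.8 to 58.0 against 69.4 to 78.0 CPM (0.58 ± 0.14, adjusted p = 0.358), and Grin2a, an NMDA receptor subunit, at 11.03 to 13.5 against 15.03 to 17.97 CPM (0.48 ± 0.13, adjusted p = 0.424). Neither passed edgeR's test, although their groups did not overlap. DESeq2 called Glra2 (adjusted p = 0.0288) but not Grin2a (0.0825).

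Slurp2 encodes a small secreted protein of the Ly6 family that acts on nicotinic receptors. It was at 4.00, 3.53, 4.84 and 3.86 CPM in PE+/- males and at 0 in all 4 PE-/- libraries, at least 7.08-fold lower (adjusted p = 0.0106). It was the only call among 14 tested genes of the Ly6 and uPAR family, of which 11 were lower (median -0.29, or -0.36 with genes at the floor set to their bound). Ly6c1 (-0.67 ± 0.18) and Lypd6b (-2.18 ± 0.80) did not pass, with adjusted p of 0.422 and 0.697.

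Gpr101, an orphan receptor on the X chromosome (chrX:57496668-57503757), was at 20.5, 15.1, 7.93 and 11.3 CPM in PE+/- males. No count was found for it in any PE-/- male library, so it was at least 23.9-fold lower (adjusted p = 0.0117). Efnb3, the gene for the Eph receptor ligand ephrin-B3, was at 4.00, 2.61, 1.45 and 2.44 CPM in PE+/- and at 14.6, 18.7, 16.8 and 14.4 CPM in PE-/- males (2.62 ± 0.29, adjusted p = 0.0154). Beside this ligand, the Eph receptor gene Epha3 was at 5.06, 5.78, 6.42 and 2.83 CPM against 17.8, 18.2, 13.5 and 13.8 CPM, and it missed the threshold (1.65 ± 0.26, adjusted p = 0.0923).

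Genes of signalling inside the cell followed. Rasgrf1 encodes an exchange factor that loads Ras with GTP in response to calcium. Its levels were 109, 97.2, 108 and 78.9 CPM in PE+/- and 17.0, 16.5, 30.3 and 18.1 CPM in PE-/- males (-2.26 ± 0.23, adjusted p = 0.0117). With a PE+/- mean of 98.3 ± 14.0 CPM (SD, n = 4), it was the most abundant of the 19 genes. Among 20 tested Ras exchange factors and Ras-Raf regulators it was the only call, in a list with a median of 0.11. Rasal1, a Ras GTPase-activating protein, was at 1.03 to 3.21 against 0 to 0.605 CPM (-3.23 ± 0.99, adjusted p = 0.549), and Rasgrp1, an exchange factor activated by diacylglycerol, at 9.58 to 22.6 against 16.7 to 52.7 CPM (1.14 ± 0.38, adjusted p = 0.613).

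Psd2, an exchange factor for the small GTPase Arf6, was at 1.83, 1.05, 1.69 and 1.54 CPM in PE+/- and at 15.6, 19.0, 15.6 and 11.4 CPM in PE-/- males (3.33 ± 0.25, adjusted p = 0.00306). Unc13c, of the Munc13 proteins that prime vesicles for release, was at 5.27, 4.26, 3.69 and 4.82 CPM in PE+/- and at 0.700, 0.342, 0.791 and 0.791 CPM in PE-/- males (-2.78 ± 0.32, adjusted p = 0.0176). Both changes were well beyond the spread of the libraries, but the PE-/- level of Unc13c lay near the floor. Fam196a, whose product is found at inhibitory synapses, was at 9.97, 14.3, 16.4 and 10.5 CPM in PE+/- and at 2.25, 1.41, 0.978 and 1.02 CPM in PE-/- males (-3.17 ± 0.33, adjusted p = 0.0117). It lies on the strand opposite to Dock1, which it overlaps and which had a log2 fold change of -0.24 (adjusted p = 0.970).

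Of transcription factors, Sox14 rose and Foxp2 fell. Sox14, a repressor of the SoxB family, was at 0.351, 0.229, 0.303 and 0.772 CPM in PE+/- males, all at or under the floor, and at 7.55, 8.78, 9.54 and 4.29 CPM in PE-/- males. It was at least 10.4-fold higher (adjusted p = 0.0117). Foxp2, a forkhead repressor, was at 26.6, 19.4, 24.3 and 25.9 CPM in PE+/- and at 8.85, 8.78, 11.1 and 7.63 CPM in PE-/- males (-1.40 ± 0.17, adjusted p = 0.0203), the smallest change among the 19. None of 24 tested pituitary lineage factors was called by edgeR or DESeq2 (2 with an unadjusted p under 0.05, median -0.0029). The nearest were Lhx4, at 0.707 to 3.39 against 0 to 0.847 CPM (-2.92 ± 1.14), and Six6, at 290 to 355 against 360 to 460 CPM (0.29 ± 0.12).

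In metabolism and transport, Slc40a1 encodes ferroportin, the exporter of cellular iron. It was at 37.6, 42.1, 38.9 and 33.0 CPM in PE+/- and at 12.9, 13.4, 12.8 and 14.9 CPM in PE-/- males. The PE-/- mean was 35.6% of the control mean (-1.49 ± 0.13, adjusted p = 0.00502). Among 16 tested iron genes it was the only one called by edgeR, with 12 lower and a median of -0.16. Steap3, a ferrireductase, was at 114, 103, 122 and 68.7 CPM against 43.1, 40.8, 22.9 and 60.3 CPM (-1.29 ± 0.30, adjusted p = 0.310). DESeq2 called Steap3 too. Heph, a ferroxidase that works with ferroportin, was at 1.79 to 2.44 against 2.60 to 3.68 CPM (0.67 ± 0.23, adjusted p = 0.662).

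Ces1d, a carboxylesterase that hydrolyses lipid esters, rose 3.97-fold, from 15.5, 9.99, 13.9 and 10.3 CPM in PE+/- to 55.8, 58.9, 40.8 and 41.6 CPM in PE-/- males (log2 1.99 ± 0.21, adjusted p = 0.0117). Sult5a1, a cytosolic sulfotransferase, fell from 6.74, 8.07, 8.05 and 6.75 CPM to 0.200, 0.760, 0.698 and 1.07 CPM (-3.43 ± 0.41, adjusted p = 0.0203). They were 2 of 7 tested sulfotransferase and carboxylesterase genes (median -0.23). The other members with the smallest p were Ces2e (-1.10 ± 0.82) and Sult2b1 (-0.46 ± 0.40), both with an adjusted p of 0.972.

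Of secreted matrix proteins, Coch rose and Aebp1 fell. Coch, the gene for cochlin, known from the inner ear, was at 1.12, 1.01, 0.303 and 0.514 CPM in PE+/- and at 20.01, 17.3, 26.3 and 17.6 CPM in PE-/- males. Its rise of 27.5-fold in the means (log2 4.77 ± 0.40, adjusted p = 0.00465) was the largest of the genes above the floor in both groups. Aebp1, which encodes a collagen-binding protein, was at 9.06, 7.93, 6.48 and 7.20 CPM in PE+/- and at 1.90, 2.17, 2.51 and 3.16 CPM in PE-/- males (-1.65 ± 0.22, adjusted p = 0.0376). None of 22 tested collagen genes was called by edgeR or DESeq2, with 2 at an unadjusted p under 0.05 (Col11a1, 1.18 ± 0.33, and Col6a3, listed at 0 in 3 PE+/- libraries) and a median of -0.04.

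The gene with the smallest p of all, 1810043G02Rik, codes for a protein of no name in the annotation (chr10:77978524-77986905). It was at 3.79, 4.36, 3.21 and 6.56 CPM in PE+/- and at 68.4, 69.3, 64.2 and 63.1 CPM in PE-/- males. The 4 PE-/- libraries lay within 66.3 ± 3.05 CPM (SD), 14.8-fold above the PE+/- mean (log2 3.89 ± 0.24, adjusted p = 0.0019).

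How far these calls rest on single libraries was asked by leaving out each of the 8 in turn. The direction of all 23 genes held in each of these fits. Ramp1, Slc40a1, 1810043G02Rik, Psd2, Npbwr1 and Coch passed the threshold in all 8 fits, and Slurp2 and Fam196a in 7 of them. Of the called gonadotrope genes, Gnrhr passed in 7 fits, Nr5a1 in 6, Lhb in 4 and Nr0b1 in 3. Gabra3 and Aebp1 passed in only 1 of the 8, Gabra3 without PE+/- replicate 4 and Aebp1 without PE-/- replicate 4. Among the 19 genes, 10 calls were lost without PE-/- replicate 2, 9 without PE+/- replicate 4 and 2 without PE-/- replicate 4. Without PE-/- replicate 4 the total rose to 35 calls, and without PE-/- replicate 2 or PE+/- replicate 4 it fell to 11 or 13.

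**Figure D3:**
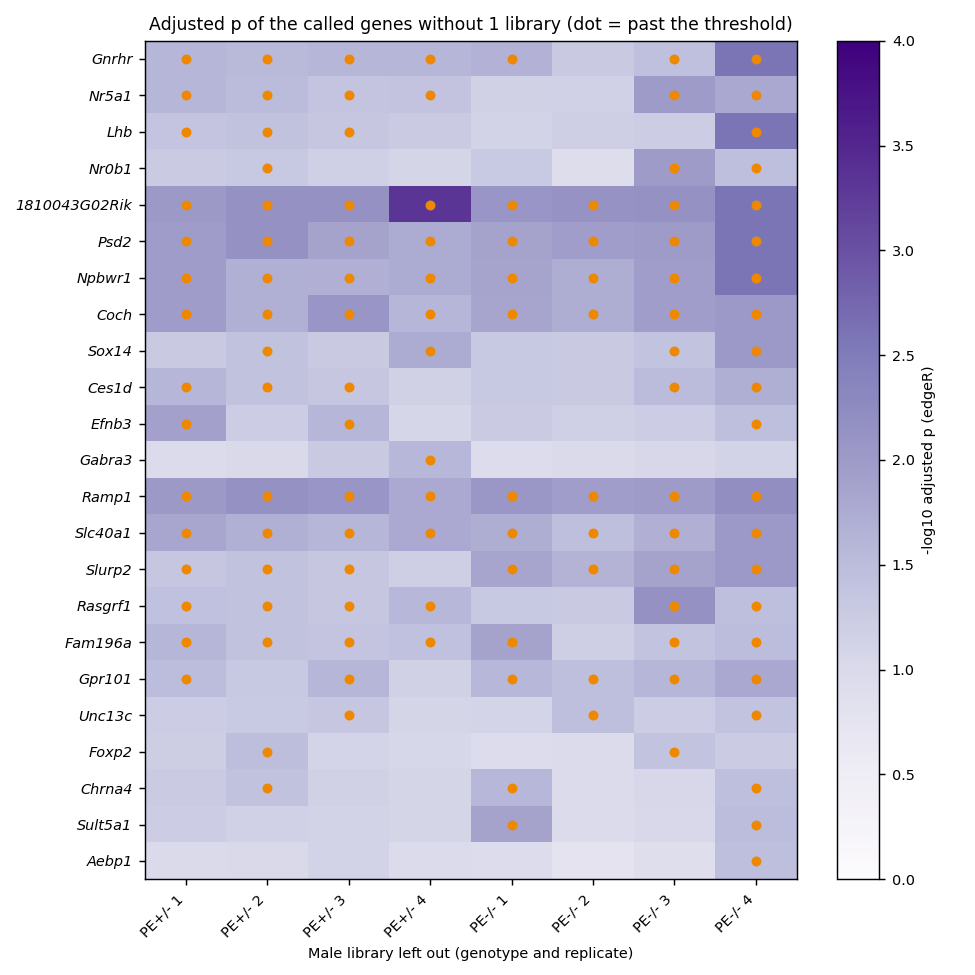
Adjusted p (edgeR, as -log10, colour scale) of the 23 called genes (vertical axis) in the 8 fits that each left out the male library named on the horizontal axis. Orange dots mark an adjusted p under 0.05. The first 4 genes are of the gonadotrope list. The rows of Ramp1, Slc40a1, 1810043G02Rik, Psd2, Npbwr1 and Coch have a dot in every column.

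The next 16 genes by p, which did not pass edgeR's test but were all called by DESeq2, are given as values. Of 8 that were higher in PE-/- males, Vegfd, a lymphatic and vascular growth factor, was at 29.8, 23.2, 26.1 and 17.9 CPM in PE+/- and at 79.5, 88.5, 81.9 and 48.4 CPM in PE-/- males (1.62 ± 0.23, adjusted p = 0.0594). Marcks, a substrate of protein kinase C, was at 48.7 to 61.1 against 92.3 to 106 CPM (0.84 ± 0.12, adjusted p = 0.0594). Otof, which encodes otoferlin, a calcium sensor of vesicle fusion, was at 0 in all 4 PE+/- libraries and at 4.90, 1.44, 2.23 and 2.54 CPM in PE-/- males, at least 3.85-fold higher (adjusted p = 0.0878). Their groups were apart, as the rule for naming them required. Pcdh7, Epha3, Car8, Ppp1r3b and C1qtnf6 had log2 fold changes of 1.09, 1.65, 1.61, 1.77 and 1.37, with adjusted p from 0.0923 to 0.116.

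Beside Fshb, 7 genes were lower by the same rule. Grem1, a secreted antagonist of bone morphogenetic proteins and a member of the gonadotrope list, was at 39.9, 15.9, 24.9 and 22.6 CPM in PE+/- and at 2.55, 0.950, 1.96 and 0.282 CPM in PE-/- males (-4.16 ± 0.60, adjusted p = 0.0605). Tgfbr3l, a co-receptor for inhibin B in gonadotropes, was at 62.7, 37.5, 295 and 30.03 CPM in PE+/- and at 2.60, 3.88, 3.07 and 3.28 CPM in PE-/- males (-5.05 ± 0.82, adjusted p = 0.0952). PE+/- replicate 3 read far above the other controls for Tgfbr3l. The gene shares an assembled locus with Map2k7 and Gm49320, and the summed locus had a log2 fold change of -1.29 (adjusted p = 0.382). A2m (-1.38), Prr15l (-1.01), Fyb2 (-2.20) and Ccn3 (-2.84) had adjusted p between 0.0614 and 0.0952. Speer4e was at 2.57 to 10.5 CPM in PE+/- males and at 0 in 3 of 4 PE-/- libraries (at least 11.1-fold lower, adjusted p = 0.0952).

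The other hormones of the gland did not pass. Gh was at 157123, 169090, 185440 and 133396 CPM in PE+/- and at 128126, 105130, 65186 and 125391 CPM in PE-/- males. Its groups did not overlap, but the difference (-0.61 ± 0.24) had an adjusted p of 0.727. Prl was at 12143 to 31074 against 4719 to 40926 CPM (-0.17 ± 0.63, adjusted p = 0.990), a value that changed sign without PE+/- replicate 1 or PE-/- replicates 2 or 3. Pomc was at 15317 to 57765 against 4593 to 114262 CPM (0.60 ± 0.78, adjusted p = 0.983) and Tshb, the beta subunit of thyrotropin, at 66.3 to 370 against 42.1 to 293 CPM (-0.38 ± 0.64, adjusted p = 0.987). The libraries of a group differed from each other by several fold for Prl, Pomc and Tshb, and each of these genes had overlapping groups.

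Gene lists for the cell types and processes of the gland were described by their counts. Of 37 lists, 9 held at least 1 called gene, all described above except that of GnRH receptor signalling. Gnrhr was again the only call of its 27 tested genes (median -0.10). An unadjusted p under 0.05 was found for 4 of the 27, with 3 lower and 1 higher. Gnrhr, Adcyap1r1 (-1.12 ± 0.35) and Camk2d (-0.51 ± 0.16) were lower and Plcb1 (0.54 ± 0.18) higher, the last 3 not past the threshold. The other 28 lists held 414 tested genes and 0 calls by edgeR. At an unadjusted p under 0.05 there were 44 of the 414, against 6.14% of all genes, and DESeq2 called 6 of the 414, a share near that of all genes (1.22%). Of these, Lcn2 and Kcna4 were lower and Cldn5, Hsd11b1, Scn9a and Kcnk3 higher in PE-/- males.

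**Figure D4:**
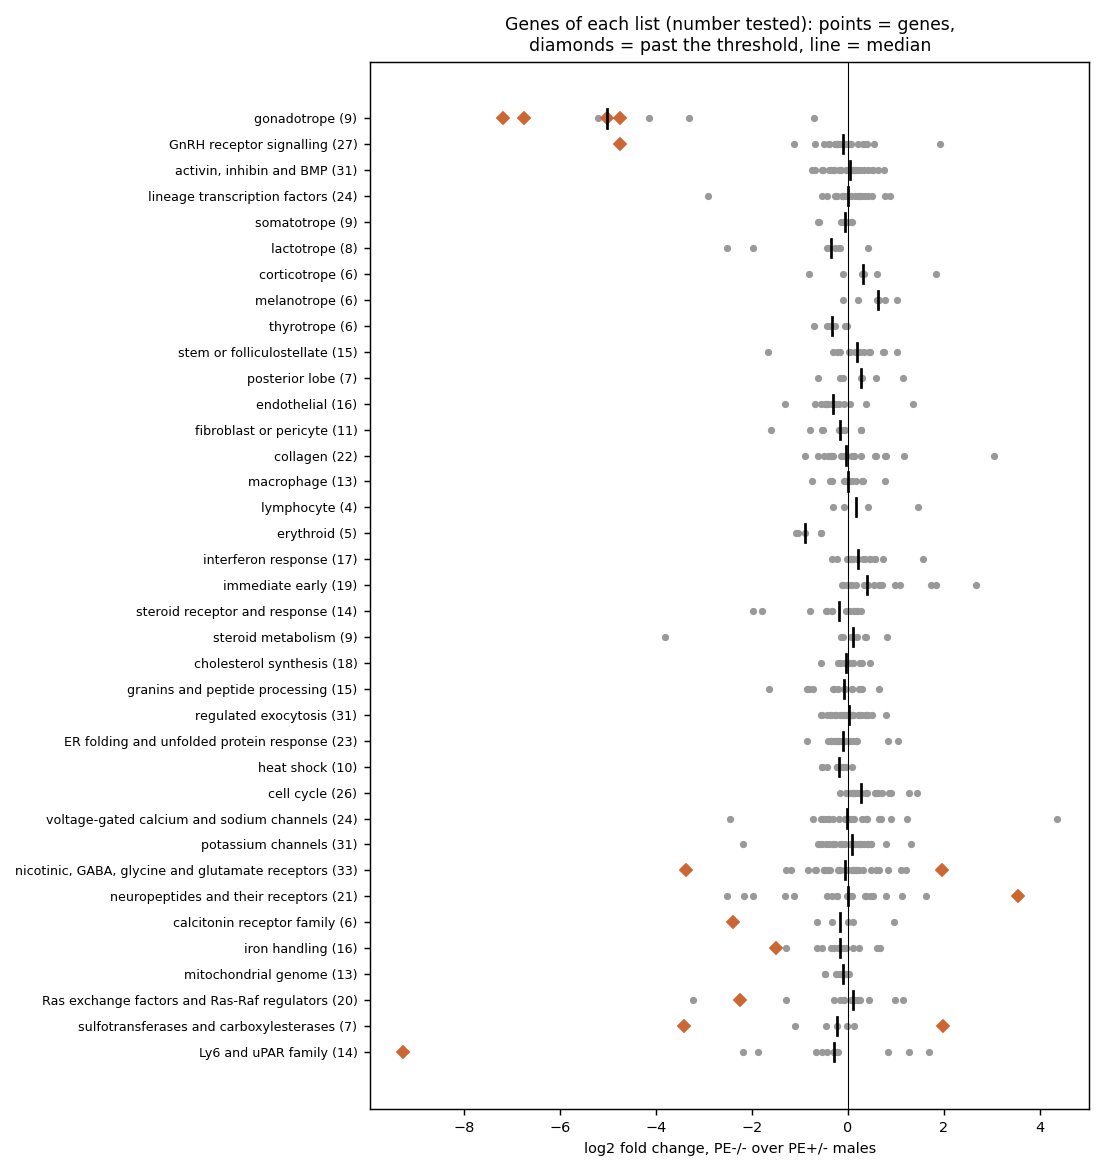
Log2 fold change of PE-/- over PE+/- males (horizontal axis) for the tested genes of each of 37 lists (vertical axis, with the number tested). Grey points are genes, orange diamonds are genes past the threshold and black lines are list medians. The gonadotrope line lies at -5.03, and the median lines of the other lists lie between -0.89 (erythroid) and 0.62 (melanotrope).

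Lists of the other hormone cells gave medians of -0.06 (somatotrope, 9 genes), -0.35 (lactotrope, 8), 0.32 (corticotrope, 6), 0.62 (melanotrope, 6) and -0.33 (thyrotrope, 6), with no called gene by edgeR or DESeq2 and 1, 1, 2, 0 and 0 genes at an unadjusted p under 0.05. In the lactotrope list, Gal was at 10.7, 12.9, 49.0 and 4.95 CPM in PE+/- and at 2.20, 1.67, 2.98 and 12.8 CPM in PE-/- males (-1.99 ± 0.87, adjusted p = 0.815), and in each group a single library stood far above the others. In the corticotrope list, Pcsk1, a prohormone convertase, was at 394, 380, 348 and 256 CPM against 270, 187, 178 and 149 CPM (-0.81 ± 0.21, adjusted p = 0.394). Oacyl and Pcsk2, which the melanotropes of the intermediate lobe express, were at 46.6 to 201 and 159 to 444 CPM in PE+/- and at 156 to 406 and 329 to 691 CPM in PE-/- males.

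Some genes of the posterior lobe list differed between single libraries within both genotypes. Oxt, the oxytocin gene, was at 0, 3.03, 0 and 7.91 CPM in PE+/- and at 0, 0, 19.7 and 4.69 CPM in PE-/- males, and Col25a1 at 1.26, 25.2, 4.72 and 64.4 against 0.600, 1.22, 38.2 and 21.8 CPM. PE+/- replicates 2 and 4 and PE-/- replicates 3 and 4 were thus the libraries with more of these genes, 2 of each genotype. The summed level of the 9 genes of the list ran from 30.5 to 207 CPM in PE+/- and from 43.4 to 180 CPM in PE-/- males, with Oxt at 0 in 4 libraries and no call among 7 tested genes (0 at an unadjusted p under 0.05, 0 by DESeq2). Whether the share of posterior lobe differed between libraries, and its part in the other results, was not tested.

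Immediate early genes, which respond to stimulation within minutes, included 16 of 19 with a higher estimate in PE-/- males and a median of 0.40, but 0 were called by edgeR or DESeq2 and 2 had an unadjusted p under 0.05. Nr4a1 was at 251, 192, 343 and 40.1 CPM in PE+/- and at 1074, 938, 360 and 576 CPM in PE-/- males (1.84 ± 0.60, adjusted p = 0.611). Npas4 was at 0 to 1.76 against 1.40 to 7.40 CPM (2.66 ± 0.93, adjusted p = 0.663). Fos also had a higher estimate (0.37 ± 1.15), but its groups overlapped, at 386, 196, 71.8 and 195 CPM against 14.3, 17.0, 292 and 776 CPM. Cell cycle genes had a higher estimate in 23 of 26 (median 0.27), and interferon response genes in 14 of 17 (median 0.20), again with 0 calls by either tool and 0 and 5 genes at an unadjusted p under 0.05. Over all genes tested, 8773 of 17392 had a higher estimate. The medians of the single PE-/- libraries had an SD of 0.319 for immediate early, 0.312 for cell cycle and 0.123 for interferon response genes. Mcm6 (0.37 ± 0.17), Mcm5 (0.56 ± 0.26), Oasl2 (0.46 ± 0.13) and Irf7 (0.74 ± 0.24) were the members with the smallest p.

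Endothelial markers had lower estimates in 13 of 16 genes (median -0.31), beside 8619 of 17392 over all genes tested. Kdr, a receptor for vascular endothelial growth factor, was at 21.5 to 29.0 against 12.1 to 18.8 CPM (-0.69 ± 0.18, adjusted p = 0.411), while Cldn5, a tight junction protein, stood the other way at 1.605 to 3.75 against 4.70 to 7.26 CPM (1.36 ± 0.32, adjusted p = 0.316). Rgs5, a pericyte marker, was at 383 to 586 against 202 to 382 CPM (-0.80 ± 0.24) and Ogn at 22.6 to 29.1 against 12.8 to 21.8 CPM (-0.55 ± 0.18). Erythroid genes were lower in 5 of 5 (median -0.89), with Hbb-bs at 274 to 486 against 87.6 to 423 CPM and Hbb-bt at 13.1 to 51.9 against 6.20 to 25.4 CPM. The medians of the single PE-/- libraries had an SD of 0.0755 for endothelial and 0.961 for erythroid genes. Macrophage (median -0.0077, 13 tested, Adgre1 at 0.77 ± 0.25 and Tyrobp at -0.37 ± 0.19) and lymphocyte genes (0.17, 4 tested, Cd79a at 1.47 ± 0.80 and Trbc2 at 0.43 ± 0.54) had a single gene and none, respectively, at an unadjusted p under 0.05. The fibroblast and pericyte list had a median of -0.16 over 11 genes. None of these 5 lists gave a call by edgeR, and 3 endothelial, 2 fibroblast or pericyte and 0 erythroid genes had an unadjusted p under 0.05. DESeq2 called Cldn5 alone among them, and the part of vessels or blood in the other results was not tested.

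Lists of steroid biology were described because NR5A1 directs steroid enzymes elsewhere and because sex steroids feed back on the gland. Of 9 tested genes of steroid metabolism, Hsd11b1, which regenerates active glucocorticoid, was at 39.0, 49.1, 61.3 and 46.9 CPM in PE+/- and at 78.4, 90.9, 83.7 and 92.0 CPM in PE-/- males (0.81 ± 0.15). Its adjusted p was 0.156 by edgeR, and DESeq2 called it. Hsd17b12 was at 126 to 155 against 159 to 198 CPM (0.39 ± 0.12, adjusted p = 0.524). Of genes that steroids control, Fkbp5 was at 41.5 to 89.0 against 34.0 to 47.2 CPM (-0.80 ± 0.23, adjusted p = 0.506) and Tsc22d3 at 274 to 373 against 258 to 278 CPM (-0.32 ± 0.12, adjusted p = 0.707), in a list of 14 with a median of -0.18. Cholesterol synthesis (18 genes, median -0.03, with Fdps at 0.47 ± 0.29 and Mvd at 0.29 ± 0.18) gave 0 genes at an unadjusted p under 0.05, against 3 of steroid metabolism (median 0.12) and 2 of the genes that steroids control. Hsd11b1 was the only call of DESeq2 in these 3 lists, and edgeR made none.

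Ion channels other than the receptors above gave no call by edgeR, with medians of -0.01 over 24 calcium and sodium channel genes and 0.09 over 31 potassium channel genes. DESeq2 called 1 and 2 of them, and 4 and 5 had an unadjusted p under 0.05. Kcna4, a voltage-gated potassium channel, was at 31.5, 27.6, 28.9 and 23.0 CPM in PE+/- and at 8.80, 6.58, 7.40 and 1.47 CPM in PE-/- males (-2.19 ± 0.46, adjusted p = 0.232), and Kcnk3, a leak potassium channel, at 12.2 to 21.5 against 24.7 to 34.9 CPM (0.79 ± 0.20, adjusted p = 0.363). Scn9a, a voltage-gated sodium channel, was at 1.57 to 3.28 against 3.50 to 6.84 CPM (1.22 ± 0.30, adjusted p = 0.348). Cacna1e, a voltage-gated calcium channel, was at 0 in 3 of 4 PE+/- libraries and 0.838 to 2.03 CPM in PE-/- males, at least 1.87-fold higher with an adjusted p of 0.310. Lists of the secretory apparatus had medians close to that of all genes. The list of 31 exocytosis genes had a median of 0.03 (Stx1a -0.37 ± 0.15, Rab27b 0.42 ± 0.22), the 15 granins and processing enzymes -0.09 (Chga 0.30 ± 0.15) and the 23 genes of protein folding in the endoplasmic reticulum -0.11 (Atf6 -0.42 ± 0.14, Hyou1 -0.86 ± 0.48), with 1 gene of each list at an unadjusted p under 0.05 and 0 called by edgeR or DESeq2. Heat shock genes (median -0.19, 10 tested, Bag3 -0.43 ± 0.13, Hspa1b -0.54 ± 0.27) and the 13 genes of the mitochondrial genome (median -0.10, mt-Co1 -0.49 ± 0.21, mt-Nd1 -0.26 ± 0.23) were alike in having 0 calls by either tool and 1 gene at an unadjusted p under 0.05.

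Receptors and ligands of the activin, inhibin and bone morphogenetic protein pathway, which controls Fshb, had 0 calls among 31 by edgeR or DESeq2 (2 at an unadjusted p under 0.05) and a median of 0.05. Id2, a target of bone morphogenetic proteins, was at 32.2 to 39.9 against 47.0 to 57.9 CPM (0.52 ± 0.13, adjusted p = 0.382), and Acvr1c, a receptor of the family, at 10.8 to 22.9 against 22.2 to 33.1 CPM (0.75 ± 0.24, adjusted p = 0.584). Among 15 stem and folliculostellate markers (median 0.19, 0 calls by edgeR, 1 by DESeq2, 4 at an unadjusted p under 0.05), Lcn2 was at 2.51 to 7.16 against 0.722 to 1.58 CPM (-1.66 ± 0.43, adjusted p = 0.391), and Cdh26 at 10.9 to 14.0 against 14.1 to 26.6 CPM (0.76 ± 0.22, adjusted p = 0.469).

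Levels in females were set beside those of males for the 19 genes. Females were fitted with males in one model of 15 libraries. Gpr101 was at or under the floor in both female groups and had no female fold. Of the other 18 genes, 15 had the same sign in females, as had 54.8% of all genes tested in males. Of the 18, 11 had the same sign and also passed the threshold in females (Psd2, Npbwr1, Coch, Slc40a1, Slurp2, Rasgrf1, Sox14, Ces1d, Efnb3, Sult5a1 and Aebp1), as did 3.02% of all genes tested in males. Npbwr1 was at 2.02 ± 0.75 CPM in PE+/- females (SD, n = 4) and at 40.7 ± 8.7 CPM in PE-/- females (SD, n = 3), and Coch at 0.688 ± 0.877 and 26.0 ± 8.4 CPM, close to the levels of males of each genotype.

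**Figure D5:**
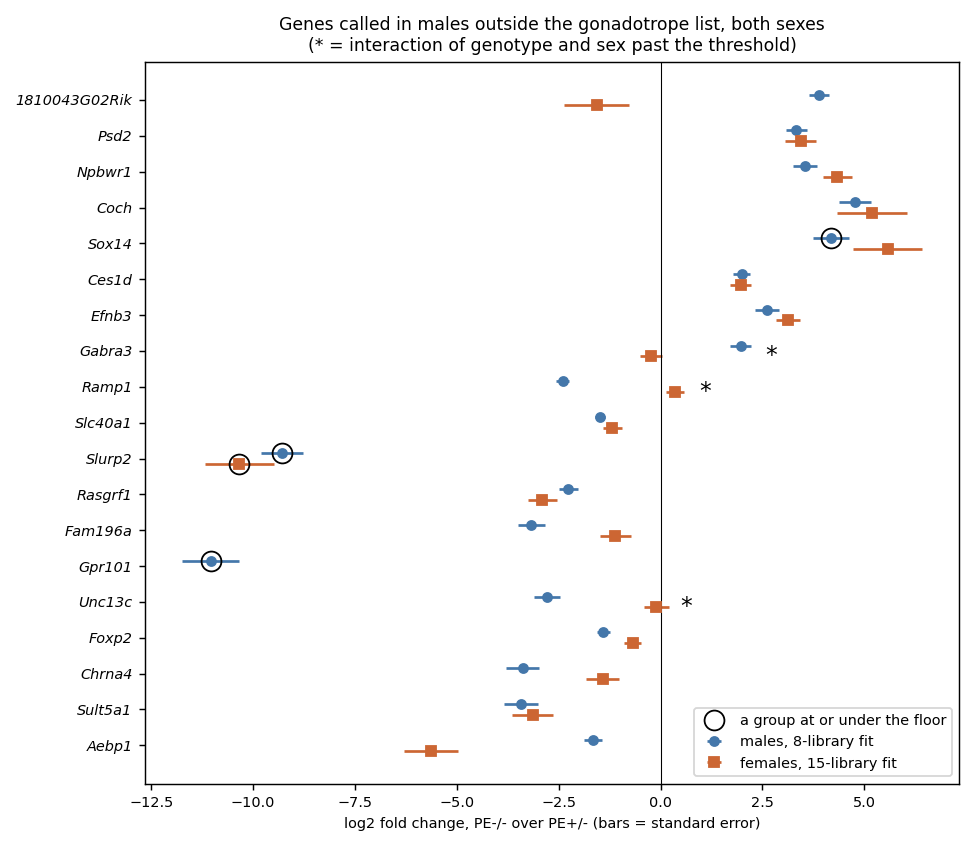
Log2 fold change of PE-/- over PE+/- (horizontal axis, bars are standard errors) of the 19 called genes outside the gonadotrope list (vertical axis), with males as blue circles from the fit of 8 libraries and females as orange squares from the fit of 15. Rings mark genes with a group at or under the floor, and Gpr101 has no female point. The stars at Gabra3, Ramp1 and Unc13c mark an interaction of genotype and sex past the threshold.

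The effect of genotype differed between the sexes for 31 of 19286 genes (0.161%), and 3 of the 19 were among them. Ramp1 was at 46.1 CPM in PE+/- males against 8.69 CPM in PE-/- males, and at 8.02 and 10.2 CPM in PE+/- and PE-/- females (interaction 2.75 ± 0.30, adjusted p = 0.00518). Unc13c was at 4.51 and 0.656 CPM in PE+/- and PE-/- males and at 1.21 and 1.12 CPM in females (2.67 ± 0.42, adjusted p = 0.0267). For both genes the PE+/- males stood apart above the other 3 groups. Those 3 lay together for Ramp1. For Unc13c the PE-/- male libraries (0.342 to 0.791 CPM) lay under all female libraries (0.988 to 1.55 CPM). Male CPM were scaled over the 8 male libraries and female CPM over all 15, so levels of the sexes are not on exactly one scale. For Gabra3 the order was the reverse, with PE+/- males the low group at 3.39 CPM, beside 13.3 CPM in PE-/- males and 12.7 and 10.8 CPM in PE+/- and PE-/- females (-2.20 ± 0.37, adjusted p = 0.0347). C1qtnf6, which was not called in males (2.03 and 5.26 CPM), was at 15.3 and 3.89 CPM in females and also passed the test of the interaction (-3.36 ± 0.48, adjusted p = 0.0173).

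Other genes did not pass that test. Among those given here, PE+/- males stood apart for Gpr101 and Grem1. For Aebp1 the PE+/- females stood apart, and for 1810043G02Rik the PE-/- males were the high group. Gpr101 was at 13.7 CPM in PE+/- males and 0 in PE-/- males, and at 0 and 0.0516 CPM in PE+/- and PE-/- females (interaction adjusted p = 0.0667). Grem1 was at 25.8 and 1.43 CPM in PE+/- and PE-/- males and at 1.22 and 1.44 CPM in females (adjusted p = 0.118). Aebp1 was higher in PE+/- females than in any other group, at 25.7, 87.1, 278 and 171 CPM, and its adjusted p of the interaction was 0.0585. For 1810043G02Rik, PE+/- female replicate 3 stood at 59.5 CPM, near the PE-/- males. The other 3 PE+/- and the 3 PE-/- female libraries lay between 3.27 and 8.36 CPM (adjusted p of the interaction 0.0844).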

How the data were processed

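Whole pituitary RNA in 4 PE+/- and 4 PE-/- male libraries was compared, with 7 female libraries alongside. Per the methods, the authors used cutadapt for trimming, STAR for mapping (mm10) and featureCounts for counting. The deposited values were estimated counts per gene, whole numbers with no normalization. About 4 counts were taken to stand for 1 fragment, a ratio assumed from the look of the values and stated by no source used here. The row names came from a transcript assembly that the methods do not describe. The counting is not known to use strand, and 8 of the 23 called genes overlap another annotated gene. The annotation release is not given in the sources used here. Gene coordinates are those of GENCODE M21 (mm10).

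Counts were rounded, filtered by filterByExpr (minimum count 10, total 15) and tested in R 4.3.3 with edgeR 4.0.16 (TMM, quasi-likelihood F test, two-sided, Benjamini-Hochberg, 0.05) on the 8 male libraries. The biological coefficient of variation was 42%. A group with every library at or under 12 counts (3 fragments at the assumed ratio) was taken as at the floor, and the bound used the mean floor of its libraries. Floors cover counting error only. Replicates differed by more than counting noise (chi-square per degree of freedom 71.4 to 231). Nothing states separate animals, so p-values measure the spread between these libraries. Female values, with their CPM scaling, and the interaction came from a fit of all 15 libraries, while male CPM were scaled over the 8 male libraries. The method was tested on simulated data.

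Genes were named by a rule, namely all called genes, Nr5a1, Lhb, Fshb, Gnrhr, Cga, Gh, Prl, Pomc and Tshb, the 8 higher and 8 lower uncalled genes of smallest p whose groups did not overlap and whose mean reached 20 counts, and in each of 37 lists the called members and the 2 others of smallest p. Fos, Col25a1, Calcrl, Dock1 and Plcb1 were added after their values were seen. The members and lists were chosen with earlier results of these data known. Alternatives were DESeq2 1.42.0, the likelihood ratio test, the size factors of DESeq2, no filter on low counts, at least 1 CPM in 4 libraries, all 15 libraries in 1 fit, a block for the replicate number, and each library left out in turn. Counts divided by 4 and counts summed per assembled locus were added after seeing the data.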

Additional observations from a re-analysis of the deposited data

Results flagged for a closer look

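In each group of 4 libraries of the 111 named genes, the gap of the highest or lowest library to its neighbour was set against the range of the group. The gap passed Dixon's 95% limit in 14 of 222 groups, and chance alone flags about 1 in 20. In PE-/- males, replicate 4 stood low for Cga (1336 CPM against 6334 to 6674, gap 0.936 of the range), Lhb (3.11 against 15.1 to 17.0 CPM, 0.858) and Tsc22d3 (258 against 275 to 278 CPM, 0.876), and high for Gal (12.8 against 1.67 to 2.98 CPM, 0.883) and Speer4e (0.282 CPM against 0, gap 1). Replicate 3 stood high for Rasgrf1 (30.3 against 16.5 to 18.1 CPM, 0.881) and Trbc2 (4.19 against 0.850 to 1.30 CPM, 0.865).

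In PE+/- males, replicate 3 stood high for Tgfbr3l (295 against 30.03 to 62.7 CPM, 0.877), Cldn5 (3.75 against 1.605 to 1.93 CPM, 0.849) and Cacna1e (0.242 CPM against 0, gap 1). Replicate 1 stood high for Mcm6 (12.6 against 9.22 to 9.64 CPM, 0.875) and Col6a3 (0.562 CPM against 0, gap 1), replicate 2 for Ramp2 (103 against 1.76 to 4.44 CPM, 0.974) and replicate 4 for Heph (2.44 against 1.79 to 1.90 CPM, 0.835).

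The effect of genotype differed between the sexes for Ramp1 (interaction log2 2.75), Unc13c (2.67), Gabra3 (-2.20) and C1qtnf6 (-3.36), by the test of the interaction in edgeR over 15 libraries.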

How the results depend on the processing

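All 23 called genes kept their direction under each alternative. The count of 23 stayed within 1.5 times with the size factors of DESeq2, without a filter, with at least 1 CPM required, and with counts divided by 4 or summed per locus (23 to 31). DESeq2 gave 203 calls, the likelihood ratio test 138 and the fit of all 15 libraries 37, and these again called 23, 23 and 21 of the 23 genes. Leaving out each male library gave 11 to 35 calls. The 31 calls of the interaction became 392 with DESeq2 and 202 with the likelihood ratio test, and leaving out each library gave 7 (PE-/- female replicate 3 left out) to 71 (PE+/- female replicate 1 left out). The cause was not tested.

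With the replicate number as a block, 0 male genes passed edgeR's test (817 at an unadjusted p under 0.05) and 11 passed for the interaction. Libraries with the same number did not deviate together (correlations -0.0896 to 0.0156, and 0 of 8 libraries were nearest their own number). The labels do not state what the number stands for, and whether libraries of the same number shared a preparation was not tested.

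Signs turned only for uncalled genes. Without single libraries, Prl ran from -1.02 to 0.14 (above 0 without PE+/- replicate 1, PE-/- replicate 2 or PE-/- replicate 3), Oxt from -0.84 to 2.52 (below 0 without PE-/- replicate 3) and Trbc2 from -0.35 to 0.66 (likewise). Oxt was at -0.35 with the block and Fdps at -0.095 when summed per locus. Among 1866 alternative values of named genes, 1698 kept sign and side of the threshold, 92 lost and 69 gained the threshold and 7 changed sign. Of 629 list medians, 107 were counted as moved, by the SD of the medians of the single PE-/- libraries. That SD was 0 for the lists of steroid metabolism, neuropeptides and their receptors, and sulfotransferases and carboxylesterases. Every alternative of these lists was therefore counted as moved, whatever its value. With 4 libraries a group, genes near 12 counts could not be told from absent ones.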
